A study of Homo sapiens with 6 samples.

Results

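The genes described here encode the machinery that senses sterols in the endoplasmic reticulum and activates the sterol regulatory element-binding proteins (SREBPs). They are the 8 genes SREBF1, SREBF2, SCAP, INSIG1, INSIG2, MBTPS1, MBTPS2 and RNF139, taken by name from the 60664 Ensembl genes of the count table, and all 8 were found. RNA-seq was performed on 6 libraries of SiHa PR cells, the parental counterpart of lymph node metastatic SiHa cells. SiHa is an established human cervical squamous carcinoma line. The control group held 3 SiHa PR samples, and the other group held 3 SiHa PR samples that overexpressed P4HA3, a subunit of collagen prolyl 4-hydroxylase. According to the study's methods, overexpression used a cDNA in a lentiviral vector and all cells grew in medium with fetal bovine serum, which contains sterols. The control samples are named only as SiHa PR. The study's figure of this RNA-seq calls them control cells, and its figures of other assays use the name Vector. Whether these control samples carried an empty vector is not given in the sources used here. Neither the number of clones behind the overexpressing cells nor whether the samples of a group were separate cultures is given in the sources used here, so p-values measure only the spread between these samples.

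SREBPs are made as inactive precursors anchored in the endoplasmic reticulum membrane, where each is bound to its escort SCAP. When sterols are scarce, SCAP carries the precursor to the Golgi in COPII vesicles, and the site-1 protease (MBTPS1) and the site-2 protease (MBTPS2) cut it in turn to free the transcription factor. When sterols are plentiful, SCAP binds the retention proteins INSIG1 or INSIG2 and the complex stays in place. SREBF1 encodes SREBP-1, best known for fatty acid synthesis genes, and SREBF2 encodes SREBP-2, best known for cholesterol synthesis and uptake genes. RNF139, also called TRC8, is a membrane ubiquitin ligase of the endoplasmic reticulum that binds this complex. INSIG1 is itself an SREBP target, and SREBF1 is a target of the oxysterol receptors (LXRs), so transcripts of the machinery also respond to the pathway they control. Only transcripts were measured in these libraries, and neither precursor cleavage nor sterols were analysed here.

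SREBF1, SREBF2 and INSIG1 were lower with P4HA3 overexpression, and in each of them every overexpressing library was below every control library. The same separation held for 20.4% of all genes tested. SREBF1 fell by 49.5%, INSIG1 fell by 34.3% and SREBF2 fell by 32.3%. SCAP was lower and MBTPS2 higher by smaller amounts, and these calls were lost without some of the libraries and after a joint correction for GC content and transcript length. INSIG2, MBTPS1 and RNF139 did not pass the test. The quasi-likelihood test of edgeR, adjusted by Benjamini-Hochberg across 15130 genes, called 4 members lower and 1 higher (adjusted p under 0.05). Among all genes tested, 20.8% were called, 11.4% lower and 9.36% higher.

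P4HA3 itself was at 3.53, 2.91 and 3.8 CPM in control replicates 1, 2 and 3, and at 1930, 1990 and 1940 CPM in overexpression replicates 1, 2 and 3, which matches the sample names. CPM is the count divided by the library size after TMM normalization and scaled to a fixed total. Total counts per library ran from 21773488 to 24939948, TMM factors from 0.979 to 1.018, and the share of mitochondrial counts from 1.31% to 2.07%. The libraries differed in how their counts followed GC content. Spearman's rho across genes between GC content and a library's deviation from its group mean ran from -0.52 to 0.45, and the log2 fold change between the groups had a rho of -0.58 with GC content. Members are therefore also given after a correction that removes the trend of each library on GC content and transcript length, which takes out whatever part of a difference follows those properties, whether technical or not. The 8 cervical epithelial markers summed to between 6630 and 7430 CPM in control libraries and to between 6600 and 7600 CPM with overexpression, and 5 of the 8 reached 1 CPM. KRT7 made up most of this sum, and single markers moved within it. CDH1 (E-cadherin) fell by 41.2% (log2 fold change -0.77, edgeR adjusted p = 0.00114, -0.79 after the GC and length correction) and KRT18 fell by 24% (log2 fold change -0.40, edgeR adjusted p = 0.0108, -0.20 after correction), while KRT7 was called higher only after correction (0.33, edgeR adjusted p = 0.00186). The part of these changes in the results below was not tested. KRT5 and TP63, which mark the squamous lineage, were under 1 CPM in both groups. A deposited protocol describes uterine smooth muscle instead of a cell line, so smooth muscle markers were examined too. Of these 7 genes, 2 reached 1 CPM in a group (SMTN and ACTG2). The defining DES, MYH11 and CNN1 had group means of at most 0.166 CPM, and at most 0.368 CPM in any library. ACTG2 was uneven within both groups. It had 30 counts in control replicate 3, 40 and 44 in overexpression replicates 1 and 3, and 0 or 1 in the other libraries. The cause was not tested.

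The promoters of SREBF1, SREBF2 and INSIG1, the members called lower in every fit, are shown first because SREBPs act on such sequences. Each run is the 250 bases before the gene's RefSeq start on GRCh38.p14, written 5′ to 3′ on the gene's own strand, and RefSeq sequences were held for 7 of the 8 members. The SREBF1 window is chr17:17836987-17837236 (minus strand), the SREBF2 window chr22:41832855-41833104 (plus strand) and the INSIG1 window chr7:155297628-155297877 (plus strand). Capitals mark matches to a sterol regulatory element written as TCACNCCAC, to an E-box written as CACGTG, and to a CCAAT box (shown as its reverse complement where it lies on the other strand), each searched on both strands.
SREBF1: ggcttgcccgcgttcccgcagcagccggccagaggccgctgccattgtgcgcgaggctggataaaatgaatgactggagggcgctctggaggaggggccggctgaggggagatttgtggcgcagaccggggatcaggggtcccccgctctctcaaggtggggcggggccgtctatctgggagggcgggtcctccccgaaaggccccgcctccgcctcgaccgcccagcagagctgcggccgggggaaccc
SREBF2: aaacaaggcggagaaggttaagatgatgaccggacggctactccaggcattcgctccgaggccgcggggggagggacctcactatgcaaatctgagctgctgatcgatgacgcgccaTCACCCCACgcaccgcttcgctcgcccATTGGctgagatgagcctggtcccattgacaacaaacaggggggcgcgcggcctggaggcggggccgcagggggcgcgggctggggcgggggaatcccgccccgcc
INSIG1: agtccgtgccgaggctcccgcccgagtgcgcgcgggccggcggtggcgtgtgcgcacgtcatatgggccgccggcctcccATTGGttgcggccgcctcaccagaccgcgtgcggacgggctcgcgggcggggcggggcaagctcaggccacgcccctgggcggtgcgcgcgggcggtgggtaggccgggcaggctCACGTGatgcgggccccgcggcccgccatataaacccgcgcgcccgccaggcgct
The SREBF2 window holds a sterol regulatory element, TCACCCCAC, from 133 to 125 bases before the start, and a CCAAT box from 106 to 102 bases before it. Of 35116 promoter windows of this length, 0.883% hold that element and 32% hold a CCAAT box. The INSIG1 window holds an E-box from 55 to 50 bases before the start and a CCAAT box from 170 to 166 bases before it, and the SCAP window holds an E-box from 58 to 53 bases before the start, against 6.34% of all windows with an E-box. None of these motifs occurs in the windows of SREBF1, INSIG2, MBTPS1 or MBTPS2. The RefSeq starts differ from the gene positions given below, which are from GENCODE. By those positions the SCAP window (chr3:47475942-47476191) lies wholly inside SCAP. The INSIG1 window ends inside INSIG1, with its E-box there, and the SREBF1 window ends just inside SREBF1. SREBF1 has more than one promoter, and the isoforms SREBP-1a and SREBP-1c cannot be told apart in counts per gene.

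Both SREBP genes also carry a microRNA of the miR-33 family in an intron, which is known to act on cholesterol export genes. They are shown because the host transcripts both fell. The mature 5p sequences from RefSeq, with the shared seed (bases 2 to 8) in capitals, are as follows.
hsa-miR-33b-5p: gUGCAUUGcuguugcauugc
hsa-miR-33a-5p: gUGCAUUGuaguugcauugca
The first lies inside SREBF1 (chromosome 17, 17813897 to 17813916 of GRCh38.p14, minus strand) and the second inside SREBF2 (chromosome 22, 41900949 to 41900969, plus strand), and neither precursor overlaps an exon of its host. MIR33A had 0 counts in all 6 libraries, and MIR33B had 1 count in control replicate 2, 1 count in overexpression replicate 1 and 0 in the others. Libraries selected for poly-A RNA do not measure mature microRNAs, so the level of miR-33 is unknown here.

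Among the transcription factors, SREBF1 (ENSG00000072310, chromosome 17, 17810399 to 17837002 of GRCh38, minus strand) changed most. The control libraries, replicates 1 to 3 in order, held 7975, 7560 and 7566 of its reads, and the overexpressing libraries held 4150, 3326 and 4420. In TMM-normalized CPM it was at 327, 355 and 309 in the control libraries and at 178, 148 and 174 in the overexpressing libraries. The groups were far apart, and the highest overexpressing library stood well below the lowest control library. The control mean of 330 ± 23.0 CPM compared with 167 ± 16.5 CPM under overexpression (SD, n = 3), and the log2 fold change was -0.99 (standard error 0.0803, 95% interval -1.16 to -0.81, edgeR adjusted p = 0.000242). Ordered from the lowest log2 fold change, SREBF1 held rank 128 of the 15130 genes tested. Its canonical transcript is rich in GC (63.2%), and after correction the log2 fold change was -0.77 (edgeR adjusted p = 2.3e-05). Exons of RAI1 on the opposite strand overlap 556 noncoding bases of SREBF1, and RAI1 had a log2 fold change of 0.05 (edgeR adjusted p = 0.568).

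SREBF2 (ENSG00000198911, chromosome 22, 41833105 to 41907306, plus strand) was at 279, 289 and 273 CPM in control replicates 1, 2 and 3, and at 191, 178 and 200 CPM in overexpression replicates 1, 2 and 3. As for SREBF1, the lowest value was that of overexpression replicate 2. The control mean of 280 ± 8.15 CPM compared with 189 ± 10.8 CPM under overexpression (SD, n = 3), and the log2 fold change was -0.56 (standard error 0.0589, 95% interval -0.69 to -0.43, edgeR adjusted p = 0.000664). After the correction, it was -0.43 (edgeR adjusted p = 0.000118). The lncRNA SREBF2-AS1 overlaps 731 bases of SREBF2 exons on the other strand and had between 4 and 10 counts per library, against at least 4004 for SREBF2.

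SREBF1 and SREBF2 were also compared with each other inside each library. The ratio of SREBF1 to SREBF2 counts within a library does not depend on library size. It was 1.17, 1.23 and 1.13 across the control libraries and 0.93, 0.83 and 0.87 across the overexpressing libraries. SREBF1 thus had more counts than SREBF2 in every control library and fewer in every overexpressing library. The difference in mean log2 ratio was -0.42 (0.24 ± 0.058 in control cells and -0.19 ± 0.085 with overexpression, SD, n = 3), and the exact permutation test, two-sided, gave p = 0.1. With 3 samples in each group this is the lowest value the test can return, so the comparison cannot reach a p under 0.05, whatever its size. The ratio was not corrected for GC content and length, and the canonical transcripts differ in GC content (63.2% for SREBF1, 58.0% for SREBF2). In the corrected fit the log2 fold change was -0.77 for SREBF1 and -0.43 for SREBF2.

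**Figure D1:**
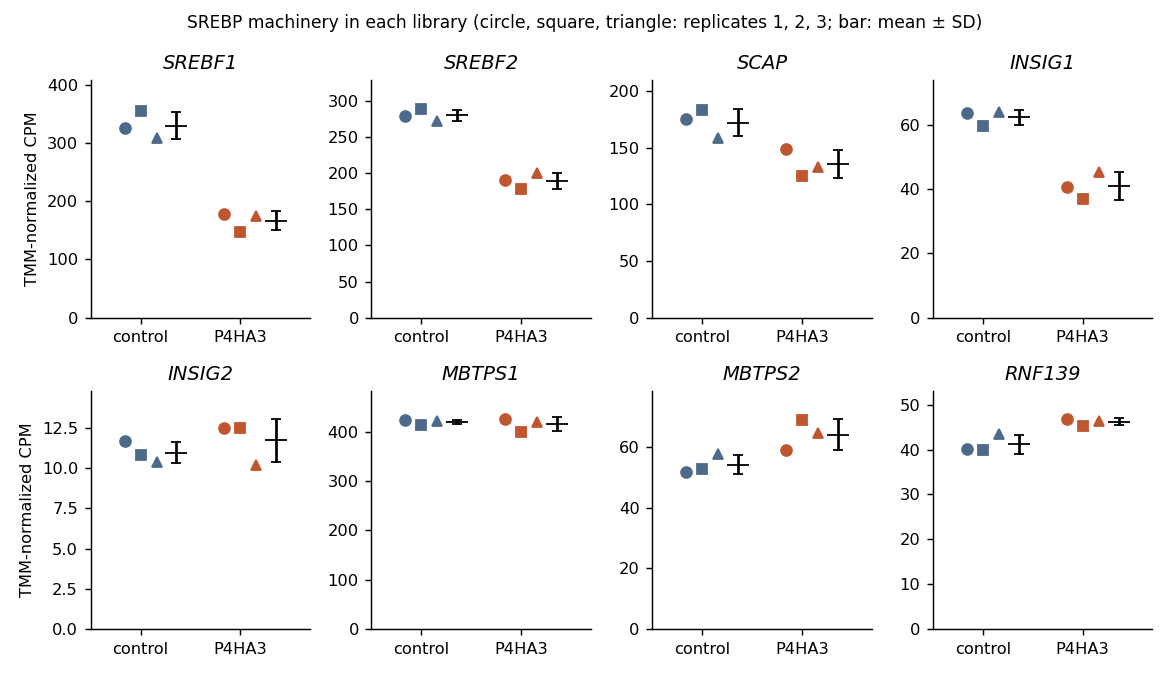
TMM-normalized CPM (vertical axes, from 0) of the 8 members in each library, with control in blue and P4HA3 overexpression in orange; markers give replicates 1, 2 and 3, and bars the mean ± SD (n = 3). SREBF1, SREBF2, SCAP and INSIG1 lie lower with overexpression without overlap, as do 20.4% of all genes tested. MBTPS1 stays between 400 and 426 CPM in all 6 libraries.

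Of the retention proteins, only INSIG1 passed the test. INSIG1 (ENSG00000186480, chromosome 7, 155297776 to 155310235, plus strand) was at 63.6, 59.7 and 63.9 CPM in control replicates 1, 2 and 3, and at 40.8, 36.8 and 45.3 CPM in overexpression replicates 1, 2 and 3. All overexpressing libraries were below all control libraries. The mean fell from 62.4 ± 2.31 to 41.0 ± 4.26 CPM (SD, n = 3), and the log2 fold change was -0.61 (standard error 0.0798, 95% interval -0.78 to -0.43, edgeR adjusted p = 0.00168). Its transcript has a GC content of 44.8%, lower than those of SREBF1, SREBF2 and SCAP. Once corrected for GC content and length, the log2 fold change of INSIG1 was -0.67 (edgeR adjusted p = 0.000113), whereas those of SREBF1, SREBF2 and SCAP moved nearer to 0.

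INSIG2 (ENSG00000125629, chromosome 2, 118088452 to 118110997, plus strand), the other retention protein, is not known as an SREBP target. It was at 11.7, 10.8 and 10.4 CPM in control replicates 1, 2 and 3 and at 12.5, 12.5 and 10.2 CPM in overexpression replicates 1, 2 and 3, and the groups overlapped. Its log2 fold change was 0.09 with a 95% interval from -0.15 to 0.33 (edgeR adjusted p = 0.554), and it rests on between 231 and 292 counts per library. In the corrected fit, it was -0.14, with an interval from -0.41 to 0.12, so its direction is not settled. The ratio of INSIG1 to INSIG2 counts was 5.41, 5.51 and 6.13 across the control libraries and 3.25, 2.96 and 4.44 across the overexpressing libraries. The ratio was lower in every overexpressing library, and the mean log2 ratio differed by -0.70 (p = 0.1 by the same exact permutation test, again its lowest possible value). This ratio was not corrected for GC content and length either, and the canonical transcripts differ in GC content (44.8% for INSIG1, 36.3% for INSIG2). In the corrected fit the log2 fold change was -0.67 for INSIG1 and -0.14 for INSIG2.

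The escort SCAP (ENSG00000114650, chromosome 3, 47413681 to 47477126, minus strand) was at 175, 183 and 159 CPM in control replicates 1, 2 and 3, and at 149, 125 and 133 CPM in overexpression replicates 1, 2 and 3. The groups did not overlap, but overexpression replicate 1 and control replicate 3 lay close together. The mean fell from 172 ± 12.5 to 135 ± 12.1 CPM (SD, n = 3), and the log2 fold change was -0.35 (standard error 0.0768, 95% interval -0.52 to -0.18, edgeR adjusted p = 0.0146). The call was lost without control replicate 1 (edgeR adjusted p = 0.0662), control replicate 2 (0.0887) or overexpression replicate 3 (0.0651). Its transcript has a GC content of 61.7%, and after correction the log2 fold change was -0.14 (95% interval -0.26 to -0.03, edgeR adjusted p = 0.0818) and the groups overlapped.

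The proteases cut SREBPs in turn in the Golgi, and their transcripts gave smaller differences. MBTPS1 (ENSG00000140943, chromosome 16, 84053761 to 84116942, minus strand) was at 423, 414 and 421 CPM in control replicates 1, 2 and 3, and at 426, 400 and 420 CPM in overexpression replicates 1, 2 and 3. These values overlapped, and the spread within groups was larger than the difference between them. The log2 fold change was -0.01 with a 95% interval from -0.13 to 0.10 (edgeR adjusted p = 0.866), and after correction it was 0.01 with an interval from -0.08 to 0.10. MBTPS2 (ENSG00000012174, chromosome X, 21839617 to 21885423, plus strand) was at 51.9, 52.7 and 57.7 CPM in control replicates 1, 2 and 3, and at 58.9, 68.9 and 64.6 CPM in overexpression replicates 1, 2 and 3.

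MBTPS2 was higher in every overexpressing library, with overexpression replicate 1 just above control replicate 3. Its log2 fold change was 0.25 (standard error 0.0745, 95% interval 0.08 to 0.41, edgeR adjusted p = 0.0423). The call did not hold without control replicate 1 (edgeR adjusted p = 0.166), control replicate 2 (0.155), overexpression replicate 2 (0.106) or overexpression replicate 3 (0.132), and after correction the log2 fold change was 0.06 (95% interval -0.03 to 0.15, edgeR adjusted p = 0.323). Its transcript has a GC content of 39.9%. Exons of YY2, a gene within MBTPS2 on the same strand, share 1093 bases with MBTPS2 exons, and YY2 had between 4 and 24 counts per library. Reads in these bases are uncertain.

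The ligase RNF139 (ENSG00000170881, chromosome 8, 124474880 to 124488618, plus strand) was at 40.1, 39.9 and 43.5 CPM in control replicates 1, 2 and 3, and at 46.8, 45.3 and 46.5 CPM in overexpression replicates 1, 2 and 3. Although the groups did not overlap, the log2 fold change of 0.17 (standard error 0.0642, 95% interval 0.02 to 0.31) did not pass the adjusted test (edgeR adjusted p = 0.0864). Of the 8 members, 6 had groups that did not overlap, against 40.1% of all genes tested. These were 4 with lower values under overexpression, against 20.4% of all genes, and 2 with higher values, against 19.7%. Under the GC and length correction, the log2 fold change of RNF139 was 0.02 with an interval from -0.11 to 0.14, and its groups overlapped.

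**Figure D2:**
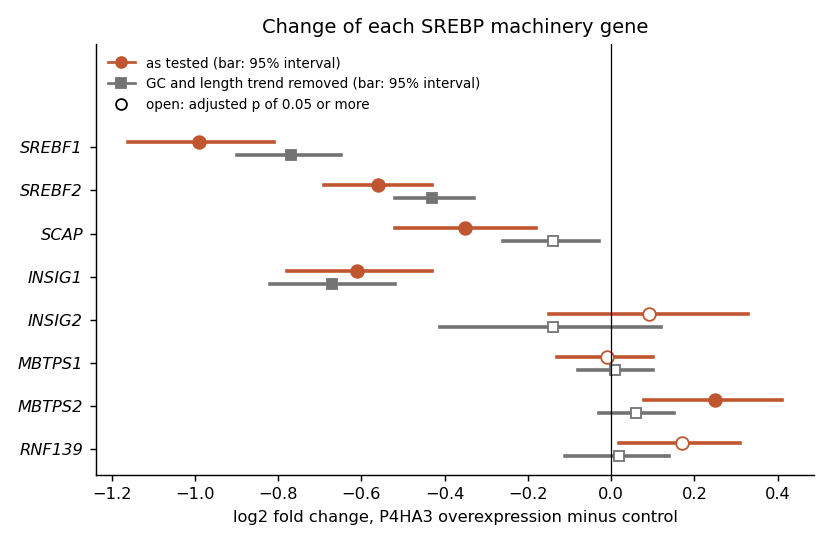
Log2 fold change (horizontal axis, P4HA3 overexpression minus control) of each member as tested (orange circles) and after the GC and length correction (grey squares); bars are 95% intervals and open symbols have an adjusted p of 0.05 or more. SREBF1, SREBF2 and INSIG1 keep filled symbols in both fits, while SCAP and MBTPS2 are open in the second.

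The corrected fit called 3 members lower (SREBF1, SREBF2 and INSIG1) and 0 higher with edgeR, and it called 18.5% of all genes tested, 7.94% lower and 10.6% higher. At an unadjusted p under 0.05 it held 4 members, all lower (SCAP beside these), and 14.3% of all genes were lower and 18.6% higher at that threshold. Groups did not overlap in that fit for 4 members, SREBF1, SREBF2, INSIG1 and MBTPS2, against 36.7% of all genes. The median log2 fold change of the 8 members was -0.18 as tested and -0.142 after correction, and over all genes tested these medians were 0.006 and 0.019. SREBF1, SREBF2 and INSIG1 were called lower in all 15 other fits of the comparison. Their log2 fold changes over these fits ran from -1.04 to -0.77 for SREBF1, from -0.60 to -0.43 for SREBF2 and from -0.68 to -0.54 for INSIG1. SCAP was called in 11 and MBTPS2 in 8 of the 15 fits, and INSIG2, MBTPS1 and RNF139 in 0 of them.

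Levels of different genes were compared as CPM per kb of exon length. In control cells the order was MBTPS1 at 40.8 ± 0.46, SREBF1 at 40.1 ± 2.82, SREBF2 at 34.8 ± 1.00, SCAP at 27.4 ± 1.94, INSIG1 at 17.1 ± 0.642, RNF139 at 12.6 ± 0.62, MBTPS2 at 6.05 ± 0.351 and INSIG2 at 2.78 ± 0.169 CPM per kb (SD, n = 3). MBTPS1 and SREBF1 overlapped in their libraries, and all other neighbours in this order were separated. With P4HA3 overexpression MBTPS1 stood alone at 40.4 ± 1.33 CPM per kb, and SREBF2 at 23.6 ± 1.37, SCAP at 21.6 ± 1.94 and SREBF1 at 20.2 ± 1.98 CPM per kb (SD, n = 3) followed. SCAP overlapped both SREBF2 and SREBF1 in its libraries, and SREBF1 was separated from the next gene. RNF139, at 14.2 ± 0.243 CPM per kb, was then above INSIG1, at 11.2 ± 1.17 CPM per kb (SD, n = 3). INSIG2 was the lowest member in both groups. With the length of the canonical transcript in place of all exons, the order in control cells was unchanged, but the separations were not. MBTPS1, at 95.8 ± 1.08, was then separated from SREBF1, at 67.4 ± 4.73 CPM per kb (SD, n = 3), and RNF139 overlapped MBTPS2. In overexpressing cells SREBF1 then stood above SCAP, and RNF139, MBTPS2 and INSIG1 lay between 14.1 and 14.4 CPM per kb without separation.

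The genes around this machinery were read from lists that were written with earlier results of these data known, so their counts are a description. The list counts are to be read beside the shares of all genes tested. These were 11.4% lower and 9.36% higher, and 7.94% lower and 10.6% higher after the GC and length correction. Of 13 partners that retain, stabilize, extract or degrade SREBP complexes, 3 were called higher, 1 lower and 9 passed in neither direction, with a median log2 fold change of 0.113. FAF2, which helps to extract ubiquitinated proteins from the membrane, had a log2 fold change of 0.21 (edgeR adjusted p = 0.0235). ERLIN2, a scaffold of endoplasmic reticulum degradation, was at 0.20 (edgeR adjusted p = 0.0334), and SPRING1, which is needed for the activity of site-1 protease, rose from 70.1 ± 1.02 to 80.4 ± 0.369 CPM (SD, n = 3), which is also 0.20 (edgeR adjusted p = 0.0278). TMUB1, a partner of the degradation ligases, was the lower gene at -0.30 (edgeR adjusted p = 0.0341). After this correction, 2 genes of this list were called higher and 0 lower with edgeR. These were FAF2 (0.14) and UBE2G2 (0.13), a ubiquitin-conjugating enzyme, whereas ERLIN2 was at 0.06, SPRING1 at 0.12 and TMUB1 at 0.03, none of them called. The list held 0 calls without control replicate 1, control replicate 2, overexpression replicate 2 or overexpression replicate 3, 6 without control replicate 3 and 7 without overexpression replicate 1. Calls over all genes moved too, from 534 without control replicate 2 to 5530 without overexpression replicate 1.

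The COPII coat, which carries SCAP and its cargo out of the endoplasmic reticulum, had more higher than lower calls. Of its 13 tested genes, 6 were called higher and 0 lower, against 9.36% and 11.4% of all genes tested. The median log2 fold change of the coat was 0.116. SEC24D, a cargo-binding subunit, was at 39.4, 37.5 and 42.6 CPM in control replicates 1, 2 and 3 and at 50.1, 55.5 and 53.6 CPM in overexpression replicates 1, 2 and 3. That is a log2 fold change of 0.41 (standard error 0.0717, edgeR adjusted p = 0.00576) without overlap of the groups. The related subunit SEC24A also had a log2 fold change of 0.41 (edgeR adjusted p = 0.0157), and SEC23A, of the inner coat, was at 0.35 (edgeR adjusted p = 0.00765). After the correction, 7 genes of the coat were called higher and 1 lower, the GTPase SAR1A (-0.25, edgeR adjusted p = 0.0191), and the log2 fold changes of SEC24A and SEC23A were smaller, at 0.19 and 0.17. Without control replicate 1, control replicate 2 or overexpression replicate 3, 3 were called, and without overexpression replicate 2, 4 were called, all of them higher. Without control replicate 3 or overexpression replicate 1, 7 were called, 6 higher and 1 lower. Calls over all genes moved too. They were 3185 without control replicate 3 (1393 higher) and 5530 without overexpression replicate 1 (2814 higher). Without control replicate 1, control replicate 2, overexpression replicate 3 or overexpression replicate 2 they were 781, 534, 904 and 2206.

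Of the other substrates of site-1 protease, 2 of 7 tested were called higher and 0 lower, against 9.36% and 11.4% of all genes tested. The median log2 fold change of this list was -0.035. ATF6, a sensor of unfolded proteins that the same proteases cleave, rose from 96.3 ± 2.45 to 113 ± 1.21 CPM (SD, n = 3), by 0.23 on the log2 scale (edgeR adjusted p = 0.0158), but was at 0.04 after correction (edgeR adjusted p = 0.75). CREB3L2, a related membrane-bound factor, was at 0.25 (edgeR adjusted p = 0.0387) and at 0.19 after correction (edgeR adjusted p = 0.0178). These calls fell to 0 without control replicate 1, control replicate 2 or overexpression replicate 3, and to 1 without overexpression replicate 2. Calls over all genes fell as well, from 3147 to 781, 534, 904 and 2206 in the same order. CREB3L3, which was not tested, had 0 counts in every library.

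SCAP shares its sterol-sensing domain with a small group of other membrane proteins, of which 6 were tested, 1 was called higher and 1 lower. Over all genes tested, the shares were 9.36% higher and 11.4% lower. PTCH1, the Hedgehog receptor, had a log2 fold change of 0.35 (edgeR adjusted p = 0.0198), and DHCR7, the last enzyme of cholesterol synthesis, had -0.64 (edgeR adjusted p = 0.00133). Without control replicate 1, control replicate 2 or overexpression replicate 3, 1 call was left, a lower one. Over all genes, 781, 534 and 904 calls were left in the same order, against 3147 with all libraries.

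Most called targets of the SREBPs were lower, as were the factors themselves. Among targets usually assigned to SREBP-2, 10 of 21 tested were called lower, 1 higher, and 10 passed in neither direction. Over all genes tested, the shares were 11.4% lower and 9.36% higher. The median log2 fold change of these targets was -0.321. MVD, an enzyme of the mevalonate pathway, was at 174, 182 and 158 CPM in control replicates 1, 2 and 3 and at 129, 105 and 117 CPM in overexpression replicates 1, 2 and 3. Its groups did not overlap, and the log2 fold change was -0.55 (edgeR adjusted p = 0.00275). SC5D, a late enzyme of cholesterol synthesis, went the other way at 0.60 (edgeR adjusted p = 0.00319). Once corrected for GC content and length, 13 of these genes were called lower and 1 higher, and the values of MVD and SC5D moved to -0.26 and 0.32, both still called. With single libraries left out, between 7 and 12 were called lower, while calls over all genes ran from 534 to 5530.

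Among targets usually assigned to SREBP-1, 8 of 13 tested were called lower, 1 higher, and 4 passed in neither direction. Over all genes tested, the shares were 11.4% lower and 9.36% higher. The median log2 fold change of these targets was -0.237. The lowest log2 fold changes were those of the desaturases SCD and FADS2. SCD was at 1860, 1920 and 1940 CPM in control replicates 1, 2 and 3 and at 724, 664 and 775 CPM in overexpression replicates 1, 2 and 3. FADS2 was at 249, 272 and 247 CPM and at 99.0, 84.6 and 98.6 CPM in the same order. Neither overlapped between the groups, and their log2 fold changes were lower than that of SREBF1, at -1.40 and -1.44 (edgeR adjusted p = 7.07e-06 for each). A further desaturase, FADS1, was at -0.70 (edgeR adjusted p = 0.000242). PNPLA3, a lipid droplet protein, had -0.71 (edgeR adjusted p = 0.0143) at a low level of 2.30 CPM in control cells. GPAM, the first enzyme of triglyceride synthesis, was the higher gene at 0.42 (edgeR adjusted p = 0.0128). In the corrected fit, 8 genes of this list were again called lower and 1 higher, GPAM at 0.23. Without control replicate 1 or control replicate 2, 5 were called lower, while calls over all genes fell from 3147 to 781 and 534.

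The receptors that act on the SREBF1 promoter gave smaller values. Of 4 tested LXR and RXR genes, 3 were called lower and 0 higher, against 11.4% and 9.36% of all genes tested. NR1H3 had a log2 fold change of -0.35 (edgeR adjusted p = 0.0396), NR1H2 -0.30 (edgeR adjusted p = 0.0266) and RXRB -0.23 (edgeR adjusted p = 0.0342). These calls fell to 0 without control replicate 1, control replicate 2 or overexpression replicate 3, and to 1 without overexpression replicate 2. Calls over all genes fell as well, from 3147 to 781, 534, 904 and 2206 in the same order. Under the GC and length correction, 0 of the 4 LXR and RXR genes were called and their median log2 fold change was -0.065, against -0.265 before. The correction therefore ended these calls, as it did for SCAP and MBTPS2, while SREBF1, SREBF2 and INSIG1 were still called.

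**Figure D3:**
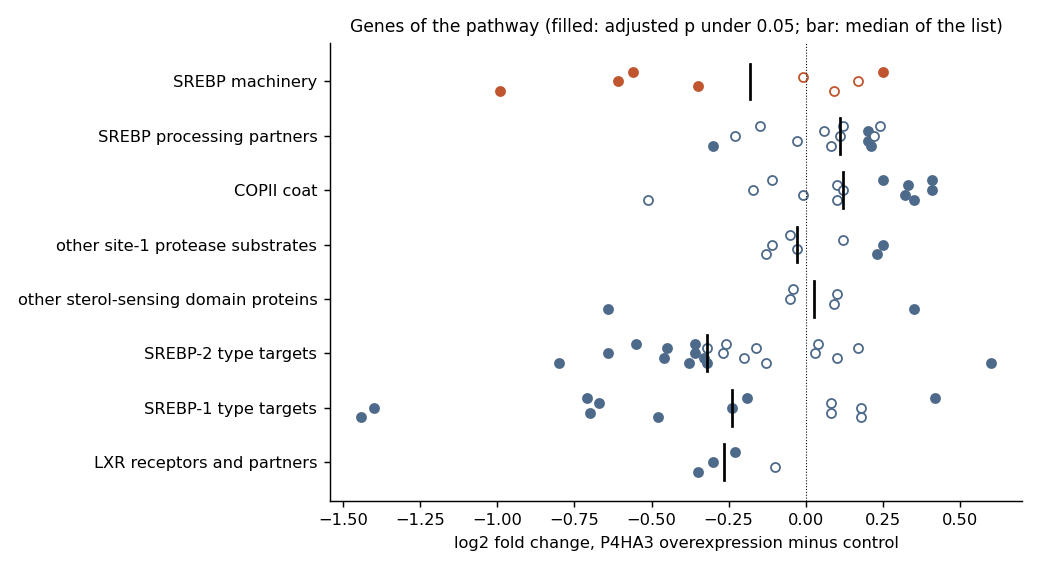
Log2 fold change (horizontal axis, P4HA3 overexpression minus control) of every tested gene of the SREBP machinery (orange) and of the surrounding lists (blue), with filled points where the adjusted p was under 0.05 and a bar at each list's median. Both SREBP target lists reach further to the left than the other lists, and the called COPII genes all lie to the right of 0.

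The genes with the most similar profiles were found among 9237 other genes whose mean reached 10 CPM, by the root mean square difference between log2 CPM values centred on each gene's mean over the 6 libraries. For SREBF1 the nearest were PALM (0.037), IFITM1 (0.073) and AIF1L (0.078). TNFAIP2 (0.021), HDAC5 (0.025) and NDRG1 (0.031) were nearest to SREBF2, and STC1 (0.029), CAMK2N2 (0.038) and SLC39A8 (0.041) were nearest to INSIG1. With so few libraries and so many genes, close profiles occur without any relation between the genes.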

How the data were processed

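RNA-seq was performed on 3 SiHa PR and 3 SiHa PR P4HA3 samples. The deposited values are raw counts per Ensembl gene, without normalization. According to the study's methods, the authors used a strand-specific kit on poly-A RNA, mapped reads with STAR to GRCh38 and obtained counts with HTSeq, whereas the submitters' processing notes name HISAT2. The strand setting, the treatment of reads with several matches and tool versions are not given in the sources used here.

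The counts entered edgeR 4.0.16 (R 4.3.3), with filterByExpr (minimum count 10), TMM normalization, and the quasi-likelihood test (two-sided) with Benjamini-Hochberg adjustment over all 15130 genes tested. A call is an adjusted p under 0.05. Standard errors are the log2 fold change of edgeR divided by the square root of its F statistic. CPM use TMM library sizes. GENCODE release 44 gave symbols (60463 of 60664 identifiers matched), positions, lengths and GC content. The common biological coefficient of variation was 7.66%, and members rest on 231 to 10648 counts per library. Paralog ratios were compared by exact permutation tests in Python 3.11.15.

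The other fits were DESeq2 1.42.0, limma-voom (limma 3.58.1), RLE and library-size normalization, no filter, at least 10 counts in every library, a replicate block, a GC and length correction (smooth terms fitted per library with mgcv 1.9.3 and used as an offset) with and without that block, and each library left out in turn. The edgeR, DESeq2 and limma-voom fits and the GC and length correction were tested on simulated data, and the other steps were not.

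The members, gene lists, tests and alternatives were chosen with earlier results of these data known. Named genes are the 8 members, P4HA3, up to 3 lowest and 3 highest called genes of each list, genes that overlap members, and the 3 nearest profiles of SREBF1, SREBF2 and INSIG1. Markers named singly, SAR1A, UBE2G2 and FADS1 were added after their values were seen. Some genes that this rule covers are not reported here.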

Additional observations from a re-analysis of the deposited data

How the results depend on the processing

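SREBF1, SREBF2 and INSIG1 were called lower, and INSIG2, MBTPS1 and RNF139 were not called, in all 15 other fits. The GC and length correction called 3 members in place of 5, with log2 fold changes of -0.14 for SCAP and 0.062 for MBTPS2, neither called, and with reversed signs for INSIG2 (-0.14) and MBTPS1 (0.014), and 57.1% of all its calls were higher, against 45% before. With library sizes only, MBTPS1 was at 0.0017 and MBTPS2 at 0.26 (not called). Without the filter, 4485 genes were called, of which 53.2% were higher. With each library left out in turn, all calls ran from 534 to 5530 (781 without control replicate 1, 534 without control replicate 2, 5530 without overexpression replicate 1 and 904 without overexpression replicate 3), called members from 3 to 5, SCAP from -0.42 to -0.29, MBTPS2 from 0.19 to 0.30 and MBTPS1 from -0.032 to 0.011. Calls ranged from 8 to 14 among SREBP-2 targets and from 5 to 11 among SREBP-1 targets, an alternative added after seeing the data. The causes were not tested.

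The replicate numbers are not said to mark a shared batch. Deviations of libraries of the same number correlated at 0.25, -0.05 and 0.03 for replicates 1, 2 and 3. Pairs of different numbers ran from -0.3 (control replicate 3 with overexpression replicate 1) to 0.27 (control replicate 3 with overexpression replicate 2). The deviations thus did not follow the replicate numbers consistently. A replicate block gave 4313 calls in place of 3147, with the same 5 members called (SREBF1 at -0.99, SREBF2 at -0.56, SCAP at -0.35, INSIG1 at -0.61, MBTPS2 at 0.24). The block with the GC and length correction gave 4 called members, SCAP among them (-0.14), with INSIG2 at -0.14, MBTPS1 at 0.014 and MBTPS2 at 0.063 (not called). The lowest member, INSIG2, had at most 292 counts per library, which limits its precision most.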
